A study of Homo sapiens with 12 samples.

Results

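The D-type cyclins and their partners form the group of 10 genes described here, taken as the rows of the count table whose gene name equals CCND1, CCND2, CCND3, CDK4, CDK6, CDKN1A, CDKN1B, CDKN1C, CDKN2C or CDKN2D. All 10 were found among the 44659 genes of the table. RNA-seq after rRNA depletion was performed on A375, an established human skin melanoma cell line that carries an activated BRAF allele, in 4 groups of 3 libraries. MAPKi cells received 500 nM vemurafenib, a BRAF inhibitor, together with 500 nM cobimetinib, a MEK inhibitor, for 24 h, and were compared with DMSO cells. Gln-depleted cells were washed and kept for 24 h in medium lacking glutamine, and were compared with CTRL cells, whose medium was otherwise the same. The medium of the MAPKi, DMSO and CTRL cells contained 2 mM glutamine. The comparisons ask how inhibition of MAPK signalling and loss of 1 amino acid alter the mRNAs of melanoma cells. All groups are 1 cell line, so the values describe that line only.

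The experiments were sequenced separately, as sequencing batch 2 for MAPKi and DMSO and as sequencing batch 1 for Gln-depleted and CTRL. In the latter, replicate 1 of each group belonged to experimental batch 1 and replicates 2 and 3 to experimental batch 2. Libraries held 31056296 to 40071368 counted reads. The chi-square per degree of freedom between replicates was 4.74 to 15.6 in the MAPKi experiment and 39.64 to 191.09 in the Gln experiment, so the same fold change had a wider error in the latter. The 8 markers of the melanocyte lineage were all detected, at unequal levels. SOX10, MITF, S100B and DCT had at least 1048.4 normalized reads in every library and PMEL 199.4 to 9750.3, whereas TYRP1 had at most 397.7 and MLANA and TYR at most 184.7. Markers of blood, endothelial and epithelial cells (6 genes) summed to 6 to 22 reads per library. The MAPK target DUSP6 had 4318 to 4608.2 normalized reads in DMSO and at most 8.84 in MAPKi libraries, and TRIB3, a target of the amino acid response, had 1918.7 to 2620.4 in CTRL and 20165.3 to 23504.5 in Gln-depleted libraries.

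D-type cyclins bind CDK4 or CDK6, and the active complex phosphorylates the retinoblastoma protein, which frees E2F factors to transcribe genes of DNA replication. Cyclin D1 is a classical output of RAS-RAF-MEK-ERK signalling and links growth factors to the cell cycle in melanoma cells. The INK4 proteins bind CDK4 and CDK6 alone, whereas the CIP/KIP proteins act on cyclin-CDK complexes, most of all those of CDK2.

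Promoters were available for 7 of the 10 genes in the RefSeq table of assembly GRCh38.p14, as 12 windows that run from 250 bases before a transcription start to 50 bases after it. CCND1, CCND2 and CDKN1C were not among them. The windows of CDKN1A and CDKN1B are shown because both mRNAs were higher after either treatment, and that of CDKN2D because its responses to the treatments differed in sign and in the direct test. CDKN1A lies on the plus strand at chr6:36678464-36678763, CDKN1B on the plus strand at chr12:12717118-12717417, and CDKN2D on the minus strand at chr19:10568930-10569229. Each is written 5′ to 3′ on the strand of its gene, with the GC box GGGCGG, or CCGCCC where it is read from the other strand, in capitals.
CDKN1A: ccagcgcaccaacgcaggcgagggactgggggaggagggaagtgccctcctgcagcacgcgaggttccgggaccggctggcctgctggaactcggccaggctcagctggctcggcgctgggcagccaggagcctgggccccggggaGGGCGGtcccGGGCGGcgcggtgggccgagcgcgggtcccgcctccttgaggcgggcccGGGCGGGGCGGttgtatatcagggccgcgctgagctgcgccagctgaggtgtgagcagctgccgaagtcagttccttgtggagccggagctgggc
CDKN1B: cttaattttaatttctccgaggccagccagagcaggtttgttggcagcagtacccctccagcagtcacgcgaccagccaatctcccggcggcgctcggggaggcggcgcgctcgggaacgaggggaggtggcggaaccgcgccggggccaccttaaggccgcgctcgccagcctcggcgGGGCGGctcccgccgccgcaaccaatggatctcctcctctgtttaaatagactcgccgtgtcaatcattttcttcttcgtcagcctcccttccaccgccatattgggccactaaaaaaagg
CDKN2D: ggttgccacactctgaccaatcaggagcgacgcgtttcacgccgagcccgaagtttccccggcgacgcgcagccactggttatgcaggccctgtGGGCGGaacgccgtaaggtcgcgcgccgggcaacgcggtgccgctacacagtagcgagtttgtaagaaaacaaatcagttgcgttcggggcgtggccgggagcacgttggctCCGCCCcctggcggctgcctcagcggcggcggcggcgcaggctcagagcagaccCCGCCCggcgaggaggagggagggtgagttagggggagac
The GC box occurred 4 times in the CDKN1A window, where the last pair overlaps, 1 time in that of CDKN1B and 3 times in that of CDKN2D. The letters CCAAT were found 3 times in the CDKN1B window, 1 time in that of CDKN2D and 0 times in that of CDKN1A. The letters TGACG, the core of the CRE, were found 1 time in the CDKN1B window only among these 3. Neither CACGTG, the E-box, nor TTTNGCGC, an E2F motif, was found in the 3 windows. Searched on both strands of all 35116 promoters of the table, GGGCGG was present in 45.0%, CCAAT in 34.6%, TGACG in 24.6%, CACGTG in 7.26% and TTTNGCGC in 1.79%. The 3 mRNAs, whose responses differed, shared a motif that nearly as many promoters hold as lack.

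With MAPKi, 8 of the 10 mRNAs had enough reads to be tested (a mean normalized count of at least 10), of which 3 rose and 4 fell at an adjusted p of at most 0.05 (quasi-likelihood test of edgeR, adjusted by Benjamini-Hochberg). These shares must be read against the whole transcriptome, in which 39.1% of the 12593 tested mRNAs rose and 38.9% fell. Against a change of at least 1.5-fold, 1 member rose (CDKN1A) and 3 fell (CCND1, CDK6, CDKN2D), beside 17.1% and 18.4% of all mRNAs tested. In response to Gln depletion CCND2 had enough reads only through the group where it was high, and is left out of the counts here. Of the other 9 genes, 3 rose and 2 fell, beside 9.73% and 7.94% of 12512 mRNAs, and at 1.5-fold 2 rose (CCND1, CDKN1A) and 0 fell, beside 3.51% and 1.92%. DESeq2 also called 0 falls at 1.5-fold. By edgeR the adjusted p against a 1.5-fold change was 0.0573 for CCND3 and 0.109 for CDKN2C. The same-numbered libraries of the Gln experiment varied together, and with the replicate number as a block 6 of the 9 rose and 2 fell, beside 25.6% and 22.9% of all mRNAs, and at 1.5-fold 3 rose (CCND1, CDK6, CDKN1A) and 2 fell (CCND3, CDKN2C), beside 8.99% and 7.4%. The plot of normalized counts by library shows all 10 genes.

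**Figure D1:**
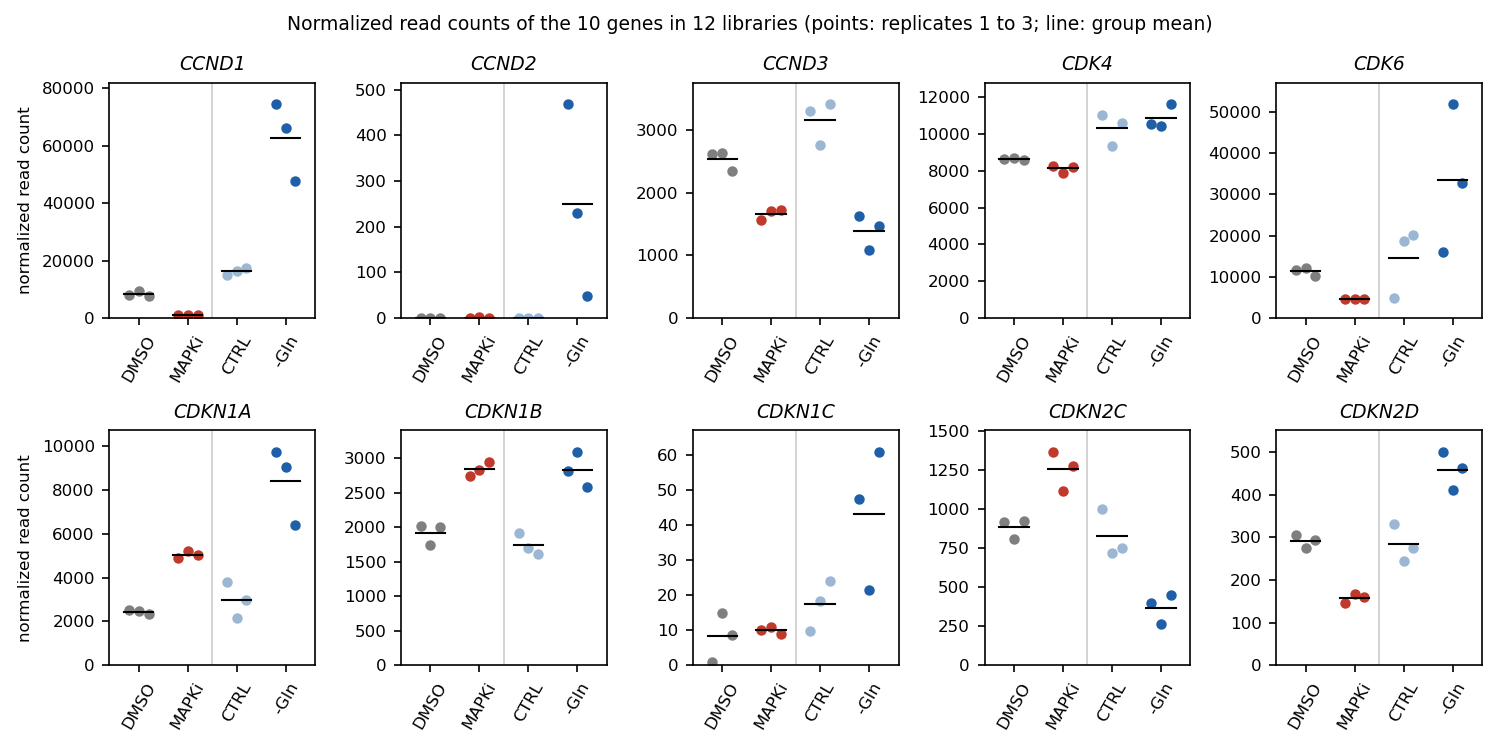
Normalized read counts (y axis, linear, from 0, scaled within each experiment) of the 10 genes in each library, by group (x axis, -Gln for Gln-depleted). Points are replicates 1 to 3 from left to right and lines are group means. CCND1 was lowest in MAPKi and highest in Gln-depleted cells, CCND2 was near 0 outside Gln-depleted cells, and CDK6 of CTRL replicate 1 stood apart at 4922.3.

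CCND1, which encodes cyclin D1, moved in opposite directions. It lies on GRCh38 chromosome 11 from 69641156 to 69654474 on the plus strand (ENSG00000110092). CCND1 had 7949.6, 9475 and 7533.6 normalized reads in DMSO and 1107.4, 1167.7 and 1141 in MAPKi libraries, with means of 8319.4 ± 1022.1 and 1138.7 ± 30.25 (SD, n = 3). In bulk RNA a lower level per cell and a smaller share of cells that express a gene cannot be told apart, here and for all genes below. All MAPKi libraries lay below all DMSO libraries, a 7.31-fold decrease (log2 fold change -2.87, SE 0.087, edgeR adjusted p = 4.64e-09). CCND1 had 14820, 16269.7 and 17501.1 normalized reads in CTRL and 74307.8, 66067.6 and 47640.9 in Gln-depleted libraries. The groups did not overlap, and CCND1 was 3.87-fold higher without glutamine (log2 fold change 1.95, SE 0.22, adjusted p = 0.00171). The increase was 2.33 on the log2 scale in the pair of experimental batch 1 and 1.75 in batch 2 alone (adjusted p = 0.00211). The MAPKi response of CCND1 minus its Gln response, tested over the 12 libraries, was -4.77 on the log2 scale (SE 0.23, adjusted p = 6.74e-08), in a test where 40.3% of 12627 mRNAs differed.

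CCND2, encoding cyclin D2 (chromosome 12, 4269771 to 4305353, plus strand), was detected almost only in Gln-depleted cells. Its raw counts were 445, 236 and 41 in the Gln-depleted libraries, 0 in every CTRL and DMSO library, and 0, 2 and 0 in the MAPKi libraries. With a floor of 3 counts per library, the Gln-depleted mean was at least 88.0-fold above CTRL and the lowest Gln-depleted library at least 17.3-fold above it. CCND2 passed the count limit of the Gln experiment only through the Gln-depleted libraries, so that no p is given for it. The 3 libraries differed 9.56-fold among themselves. The antisense gene CCND2-AS1, which overlaps CCND2 on the opposite strand, had 24, 18 and 5 reads in the same libraries and 0 in all others, and reads from the pair cannot be told apart if strand was not used in counting. Even at its highest, CCND2 remained a minor D-type cyclin, at 0.858 ± 0.726 normalized reads per kb of exon, scaled to the size of the library (RPKM).

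CCND3, encoding cyclin D3 (chromosome 6, 41934934 to 42050357, minus strand), was lower after both treatments. CCND3 had 2625, 2639.2 and 2357.2 normalized reads in DMSO and 1567.7, 1712.4 and 1721.2 in MAPKi libraries, without overlap (1.52-fold lower, log2 fold change -0.61, SE 0.058, adjusted p = 8.77e-06 against no change and 0.358 against a 1.5-fold change). CCND3 had 3303.8, 2760.8 and 3416.2 normalized reads in CTRL and 1636.6, 1081.1 and 1464.9 in Gln-depleted libraries, again without overlap (2.27-fold lower, log2 fold change -1.18, SE 0.22, adjusted p = 0.0107). Against a 1.5-fold change the adjusted p of this decrease was 0.0573, and 0.00345 with the replicate block. The log2 fold change was -1.01 in the pair of batch 1 and -1.28 in batch 2 alone (adjusted p = 0.00573). The fall of CCND3 was 0.62 smaller with MAPKi on the log2 scale (SE 0.22, adjusted p = 0.0377), a call that was lost when any of 9 of the 12 libraries was left out (adjusted p up to 0.0907). With all libraries and the replicate block this difference was 0.64 (adjusted p = 0.00284).

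CDK4 and CDK6, the catalytic partners of the D-type cyclins, are described in turn. CDK4 lies on chromosome 12 from 57747727 to 57756013 and CDK6 on chromosome 7 from 92604921 to 92836573, both on the minus strand. CDK4 had 8625.6, 8692.4 and 8561.8 normalized reads in DMSO and 8277.5, 7904.6 and 8204.4 in MAPKi libraries. These groups did not overlap, but the difference was small and did not pass the test (log2 fold change -0.09, 95% confidence interval -0.18 to 0.01, adjusted p = 0.084). CDK4 ranged from 9329.5 to 11011 in CTRL and from 10459.5 to 11609.6 in Gln-depleted libraries, which overlapped (log2 fold change 0.07, interval -0.32 to 0.47, adjusted p = 0.792). For CDK4, the difference between the responses did not pass the test either (-0.11 on the log2 scale, interval -0.43 to 0.21, adjusted p = 0.576).

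CDK6 fell with MAPKi from 11522.9, 12079.4 and 10305.6 normalized reads in DMSO to 4703, 4529.5 and 4681.1 in MAPKi libraries. The decrease was 2.44-fold (log2 fold change -1.28, SE 0.062, adjusted p = 7.58e-08), with no overlap. Against a 1.5-fold change the adjusted p was 1.69e-06, but 0.13 in a fit of all 12 libraries. In the Gln experiment CDK6 had 4922.3 normalized reads in CTRL replicate 1, but 18661.8 and 20148.9 in replicates 2 and 3, so that CTRL cells of batch 2 held 3.94-fold more than those of batch 1. Gln-depleted libraries had 15934.7, 51802.7 and 32663.6 normalized reads and thus followed the same batches. The groups overlapped and the pooled increase did not pass the test (log2 fold change 1.199, SE 0.56, adjusted p = 0.166). Within pairs of the same number the log2 increase of CDK6 was 1.70, 1.47 and 0.70, and it passed with the replicate block (1.29, SE 0.19, adjusted p = 0.00154) and within batch 2 alone (1.12, adjusted p = 0.0117). The responses of CDK6 to the treatments differed by -2.44 (SE 0.65, adjusted p = 0.0107), or by -2.52 with the block (adjusted p = 4.92e-05). The overlapping antisense gene CDK6-AS1 had 4 to 75 reads per library.

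**Figure D2:**
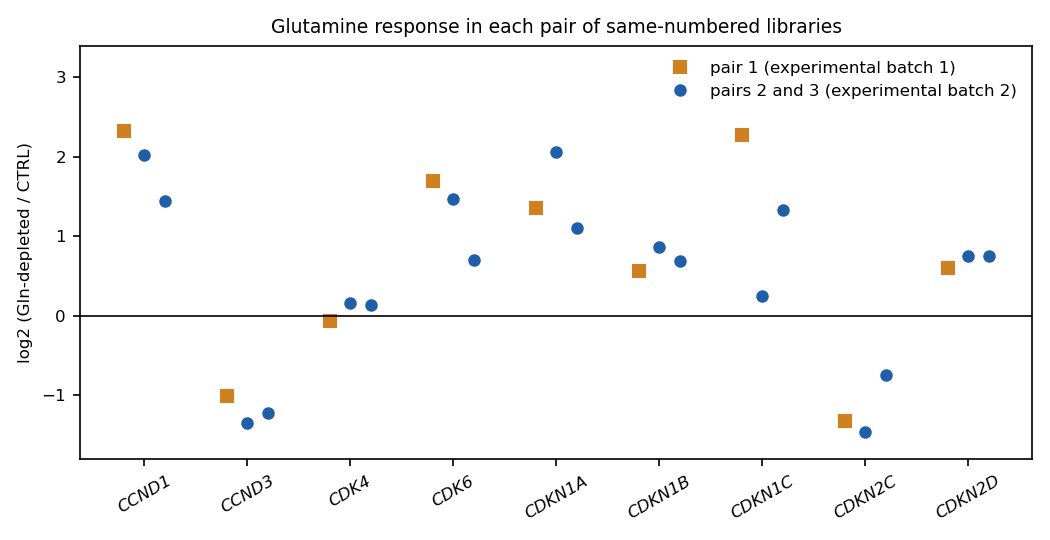
Log2 ratio of Gln-depleted to CTRL normalized counts (y axis) for each pair of same-numbered libraries, by gene (x axis; CCND2, with 0 reads in CTRL, is not drawn). Squares are the pair of experimental batch 1 and circles the pairs of batch 2. CDK6 was higher in all 3 pairs, at 1.70, 1.47 and 0.70, and CDK4 is the only gene with pairs on both sides of 0.

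The CIP/KIP inhibitors CDKN1A and CDKN1B were higher after both treatments. CDKN1A encodes p21, a p53 target that binds cyclin-CDK complexes (chromosome 6, 36676460 to 36687337, plus strand). CDKN1A had 2522.4, 2462.2 and 2325.4 normalized reads in DMSO and 4879.7, 5208.9 and 5054.3 in MAPKi libraries, a 2.07-fold increase without overlap (log2 fold change 1.05, SE 0.048, adjusted p = 5.11e-08). CDKN1A had 3807, 2169.5 and 2980.7 normalized reads in CTRL and 9762.1, 9078.2 and 6407.2 in Gln-depleted libraries, a 2.82-fold increase (log2 fold change 1.495, SE 0.27, adjusted p = 0.00947). Here too each treated library exceeded each control. Against a 1.5-fold change the adjusted p was 0.0387, and this call was lost without CTRL replicate 2 or 3 or Gln-depleted replicate 1 or 2 (adjusted p 0.06 to 0.132). With all libraries and the replicate block this adjusted p was 0.0044. The log2 increase of CDKN1A was 1.36 in the pair of batch 1 and 1.59 in batch 2 alone (adjusted p = 0.0049). The MAPKi response minus the Gln response was -0.39 (interval -1.01 to 0.22, adjusted p = 0.29), an interval that still allows a response nearly 1 log2 unit larger without glutamine.

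CDKN1B encodes p27, which restrains CDK2 and whose protein is degraded through SKP2 and CKS1B (chromosome 12, 12685498 to 12722369, plus strand). CDKN1B had 2016.2, 1738.3 and 2005.2 normalized reads in DMSO and 2744.7, 2830.4 and 2943.9 in MAPKi libraries (1.48-fold higher, log2 fold change 0.57, SE 0.061, adjusted p = 2.06e-05 against no change and 0.728 against a 1.5-fold change). CDKN1B had 1906.9, 1700.4 and 1604.6 in CTRL and 2815.3, 3091.9 and 2585.1 in Gln-depleted libraries (1.63-fold higher, log2 fold change 0.70, SE 0.18, adjusted p = 0.0328). Neither pair of groups overlapped. The call without glutamine was lost when CTRL replicate 2 or 3 or Gln-depleted replicate 2 or 3 was left out (adjusted p 0.0657 to 0.127). With all libraries and the replicate block its adjusted p was 0.00286. For CDKN1B the log2 increase was 0.56 in the pair of batch 1 and 0.78 in batch 2 alone (adjusted p = 0.0112). The responses of CDKN1B differed by -0.09 (interval -0.46 to 0.28, adjusted p = 0.706).

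CDKN1C, encoding p57 (chromosome 11, 2883213 to 2885775, minus strand), was near the lower limit of detection. CDKN1C had raw counts of 1, 15 and 9 in DMSO and of 10 in each MAPKi library, too few for the test. A further copy of CDKN1C in the table, kept apart, had 14 reads in MAPKi replicate 3 and at most 2 in any other library. CDKN1C had 9.81, 18.2 and 24.1 normalized reads in CTRL and 47.3, 21.5 and 60.8 in Gln-depleted libraries, which overlapped. Its log2 fold change was 1.30 (SE 0.51, adjusted p = 0.112), and 1.27 with the replicate block (adjusted p = 0.0463). The pairs gave 2.27, 0.25 and 1.34 for CDKN1C, and batch 2 alone 0.94 (adjusted p = 0.233).

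The INK4 inhibitors, which bind CDK4 and CDK6 directly, had responses of opposite sign. CDKN2C encodes p18 (chromosome 1, 50960745 to 50974634, plus strand). CDKN2C had 918.4, 810.5 and 922.1 normalized reads in DMSO and 1366.8, 1118 and 1273.4 in MAPKi libraries, a 1.42-fold increase without overlap (log2 fold change 0.50, SE 0.082, adjusted p = 0.000348 against no change and 1 against a 1.5-fold change). CDKN2C had 1001.5, 718.4 and 751.4 in CTRL and 400.2, 261 and 447.3 in Gln-depleted libraries, a 2.23-fold decrease without overlap (log2 fold change -1.16, SE 0.27, adjusted p = 0.0223). This call was lost without CTRL replicate 2 or 3 or Gln-depleted replicate 2 (adjusted p 0.0557 to 0.0789). With all libraries and the replicate block the adjusted p against no change was 0.00181. Against a 1.5-fold change the adjusted p of the decrease was 0.109, and 0.0159 with the replicate block and 0.0134 in a fit of all 12 libraries. CDKN2C fell by 1.32 on the log2 scale in the pair of batch 1, and its log2 fold change was -1.06 in batch 2 alone (adjusted p = 0.0253). The MAPKi response of CDKN2C exceeded the Gln response by 1.71 (SE 0.28, adjusted p = 0.000556).

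CDKN2D encodes p19 of the INK4 family (chromosome 19, 10566460 to 10569059, minus strand). CDKN2D had 304.4, 275.5 and 294.2 normalized reads in DMSO and 145.4, 166.8 and 160.8 in MAPKi libraries, a 1.85-fold decrease without overlap (log2 fold change -0.89, SE 0.098, adjusted p = 2.31e-05). Against a 1.5-fold change the adjusted p of this decrease was 0.00498, but 0.0962 with DESeq2 and 0.0521 in a fit of all 12 libraries. CDKN2D had 330.6, 244.6 and 274.9 in CTRL and 501.1, 410.6 and 462.9 in Gln-depleted libraries. These groups did not overlap either, but the difference missed the threshold (log2 fold change 0.69, SE 0.22, adjusted p = 0.0653). It passed with the replicate block (0.70, adjusted p = 0.00834), in batch 2 alone (0.75, adjusted p = 0.0287), in a fit of all 12 libraries (0.66, adjusted p = 0.00574) and with DESeq2 (0.69, adjusted p = 0.0183), and the pair of batch 1 gave 0.60. The responses of CDKN2D differed by -1.53 (SE 0.22, adjusted p = 0.000221).

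**Figure D3:**
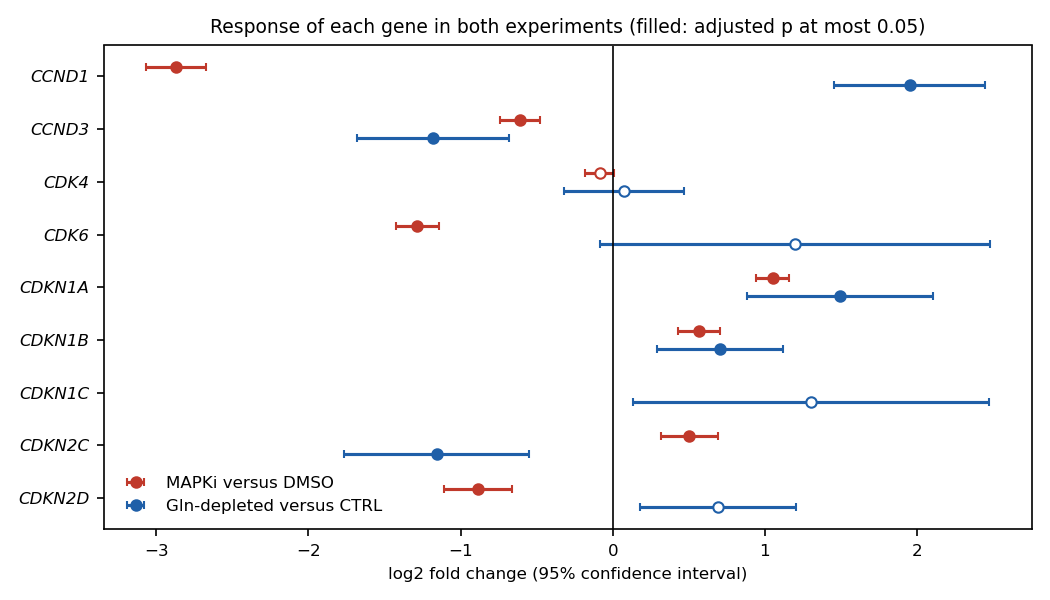
Log2 fold change (x axis) of each gene (y axis) with its 95% confidence interval, for MAPKi versus DMSO (red) and Gln-depleted versus CTRL (blue), without the replicate block. Filled points passed an adjusted p of 0.05. CCND1 lay at -2.87 and 1.95 and CDKN2C at 0.50 and -1.16, on opposite sides of 0, while CDKN1A (1.05 and 1.495) lay on the same side. CCND2 is not drawn, and CDKN1C was tested without glutamine only.

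Of the 10 genes, 5 responded differently to the treatments in the direct test (CCND1, CCND3, CDK6, CDKN2C and CDKN2D), beside 40.3% of all mRNAs tested. CCND2, with 0 reads in every CTRL and DMSO library, had no standard error in this test and cannot be counted as differing or not. The MAPKi and the Gln experiments share no library, but each has its own sequencing batch, and what a batch changed equally in treated and control libraries cancels in this contrast.

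To compare genes with each other, counts were divided by exon length. In DMSO cells CDK4 was the most abundant of the 10 mRNAs (78.5 ± 0.221 RPKM, SD, n = 3), followed by CCND1 (49.2 ± 5.57), CDK6 (26.0 ± 1.89), CDKN1A (22.9 ± 0.884) and CCND3 (12.4 ± 0.703). CDKN2C (8.25), CDKN1B (5.85) and CDKN2D (5.45 RPKM) came next, and the ranges of CDKN1B and CDKN2D overlapped. With MAPKi, CCND1 fell from the second to the seventh place (6.79 ± 0.236 RPKM), below CCND3 (8.22 ± 0.477), and CDKN1A took the second place (47.9 ± 1.96) behind CDK4 (74.6 ± 1.22). CDKN2C (11.8) and CDK6 (10.8 RPKM) overlapped there, as did CDKN1B (8.72) and CCND3.

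In CTRL cells CCND1 (95.9 ± 6.75 RPKM) and CDK4 (94.1 ± 8.36) stood level, with overlapping ranges, ahead of CDK6 (33.5 ± 19.1) and CDKN1A (28.1 ± 7.94), which also overlapped. In Gln-depleted cells CCND1 reached 361.9 ± 79.3 RPKM, above CDK4 (96.5 ± 5.85), CDKN1A (77.2 ± 16.3) and CDK6 (75.0 ± 39.9). The latter 3 overlapped in part, CDK6 with both others. CDKN1B (8.41), CDKN2D (8.37) and CCND3 (6.66 RPKM) were not separated from each other beyond their spread. The order depends on the length taken for each gene: with the longest transcript, CDK4 (156.0) stood above CCND1 (107.8 RPKM) in CTRL cells, and CCND3 (29.9) above CDK6 (27.3 RPKM) in DMSO cells. The RPKM of the 12 libraries share a common scale, but DMSO and CTRL cells belong to separate sequencing batches and were not tested against each other.

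The mixture of D-type cyclin mRNAs shifted with both treatments. CCND1 made up 78.6%, 81.3% and 79.5% of the summed D-type cyclin RPKM in DMSO and 46.1%, 45.2% and 44.5% in MAPKi libraries, so that CCND3, at 54.7% ± 0.788, became the larger part. CCND1 made up 84.4%, 87.7% and 86.1% in CTRL and 97.9%, 98.5% and 97.5% in Gln-depleted libraries, where CCND3 held 1.86% ± 0.577 and CCND2 0.21% ± 0.154. In sum the D-type cyclins fell 4.1-fold with MAPKi, from 61.6 ± 6.03 to 15.0 ± 0.699 RPKM, and were 3.32-fold higher without glutamine, at 369.4 ± 80.2 against 111.4 ± 6.91. The shares and sums rest on 1 length per gene: with the longest transcript in place of all exons, CCND1 held 64.8% in DMSO, 27.9% in MAPKi, 74.3% in CTRL and 95.9% in Gln-depleted cells. The sum then fell 3.1-fold with MAPKi and was 2.92-fold higher without glutamine.

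The 5 inhibitor mRNAs, in contrast, were higher in sum after both treatments. Their summed RPKM was 44.3, 40.9 and 42.5 in DMSO and 69.9, 72.5 and 72.0 in MAPKi libraries (1.68-fold), and 58.1, 37.1 and 44.8 in CTRL and 111.7, 102.1 and 79.7 in Gln-depleted libraries (2.1-fold). CDKN1A made up most of it, at 53.9% ± 2.09 in DMSO, 67.0% ± 1.56 in MAPKi, 59.8% ± 4.13 in CTRL and 78.5% ± 4.09 in Gln-depleted cells. CDKN2C shrank from 16.6% ± 1.34 in CTRL to 3.57% ± 1.42 without glutamine, and CDKN2D from 12.8% ± 0.302 in DMSO to 4.16% ± 0.246 with MAPKi. The ratio of summed D-type cyclin to summed inhibitor RPKM was 1.36, 1.67 and 1.33 in DMSO and 0.204, 0.215 and 0.212 in MAPKi libraries. Without glutamine it moved the other way, with 1.81, 2.96 and 2.65 in CTRL and 3.94, 3.78 and 3.54 in Gln-depleted libraries, and neither pair of groups overlapped. These ratios are given as values, without a test. With the longest transcript they averaged 1.49 in DMSO, 0.281 in MAPKi, 2.4 in CTRL and 3.17 in Gln-depleted libraries.

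**Figure D4:**
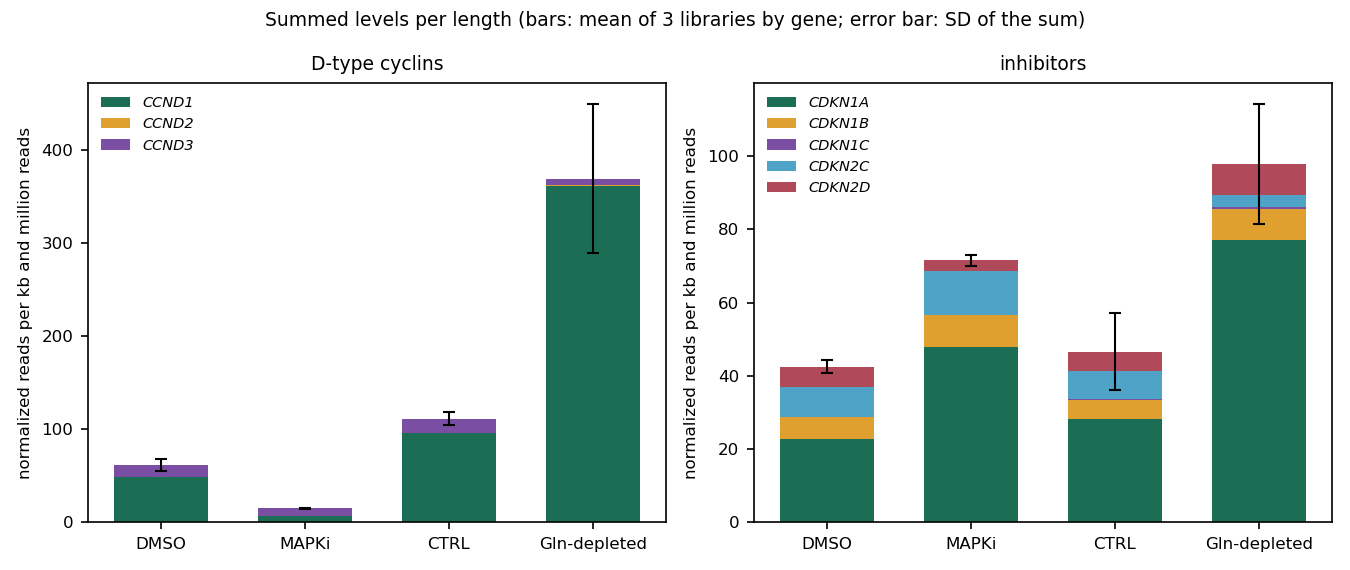
Summed normalized reads per kb of exon, as RPKM (y axis, from 0), of the D-type cyclins (left) and the CDK inhibitors (right) in each group (x axis). Bars stack the mean of 3 libraries by gene, and error bars are the SD of the sum. The D-type cyclins ran from 15.0 in MAPKi to 369.4 in Gln-depleted cells, almost all of the latter CCND1, while the inhibitors were higher in both treated groups, at 71.5 and 97.8.

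The genes around the D-type cyclins were described from 4 lists, whose counts are to be read against all mRNAs tested, of which 39.1% rose and 38.9% fell with MAPKi, 9.73% rose and 7.94% fell without glutamine, and 25.6% rose and 22.9% fell without glutamine with the block. Of 13 partners of the G1/S transition (E-type cyclins, CDK2, E2F and retinoblastoma family genes and the like), 12 were tested with MAPKi, of which 1 rose and 11 fell. Their median log2 fold change was -0.80, beside 0.01 over all mRNAs tested. CDC25A, a phosphatase that activates CDK2, fell by 2.86 on the log2 scale (adjusted p = 1.18e-08), E2F1 fell by 2.86 (adjusted p = 4.14e-09), and RBL2, a retinoblastoma family gene, rose by 0.35 (adjusted p = 0.000133). In response to Gln depletion 2 of the 12 fell, with a median of -0.35 beside 0.02 over all mRNAs. These were CDK2 (log2 fold change -1.62, adjusted p = 0.00145) and CCNA2, encoding cyclin A2 (-0.90, adjusted p = 0.014). With the replicate block 2 of the 12 rose and 3 fell.

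Another list held 9 genes around the handling of cyclin D and p27, among them kinases and ubiquitin ligase subunits. Of these, 2 rose and 5 fell with MAPKi (39.1% and 38.9% of all mRNAs), with a median of -0.61. CKS1B fell by 1.83 (adjusted p = 8.07e-09) and SKP2 fell by 1.58 (adjusted p = 9.43e-09), both of the complex that marks p27 for degradation. GSK3B, a kinase that phosphorylates cyclin D1, rose by 0.52 (adjusted p = 4.65e-06), and AMBRA1, a receptor for cyclin D degradation, by 0.37 (adjusted p = 4.78e-05). Without glutamine 2 rose and 1 fell (9.73% and 7.94% of all mRNAs), or 5 and 4 with the block (25.6% and 22.9%), with a median of 0.43. GSK3B rose by 0.76 (adjusted p = 0.0307) and SKP2 fell by 0.93 (adjusted p = 0.0155). CDK7, of the CDK-activating kinase, had 46.1, 17.2 and 20.5 normalized reads in CTRL and 494.8, 72.3 and 727.7 in Gln-depleted libraries (log2 fold change 3.95, SE 0.81, adjusted p = 0.0151). A further copy of CDK7 in the annotation has its own row in the table, so its level is uncertain.

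E2F-driven S-phase genes fell together with MAPKi, 18 of 18 tested, with a median log2 fold change of -2.28. MCM10, a factor of replication initiation, fell by 3.52 (adjusted p = 2.76e-09) and RRM2, a subunit of ribonucleotide reductase, fell by 2.91 (adjusted p = 6.83e-10). Without glutamine 7 of the 18 fell, with a median of -1.04, and 18 fell with the replicate block. There MCM10 fell by 1.57 (adjusted p = 0.00765) and GINS2, of the replicative helicase, fell by 1.41 (adjusted p = 0.00731). The fall without glutamine thus stood beside a higher CCND1 level and that with MAPKi beside a lower one. Of the 18 genes, 14 had a larger fall with MAPKi in the direct test of the difference, and the other 4 did not pass it. In that test 40.3% of 12627 mRNAs differed in either direction, and the share in this direction was not computed.

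Among 17 other p53 targets, 8 rose and 6 fell with MAPKi, with a median of 0.01, equal to that of all mRNAs. TP53INP1 rose by 3.39 (adjusted p = 2.64e-09) and TP53I3 by 1.94 (adjusted p = 5.32e-09), whereas GDF15 fell by 1.78 (adjusted p = 1.73e-08) and AEN fell by 1.01 (adjusted p = 2.22e-06). Without glutamine 3 rose and 1 fell (6 and 3 with the block), with a median of 0.30. GDF15 rose by 2.46 (adjusted p = 0.000902) and TP53INP1 by 1.81 (adjusted p = 0.0114), and SESN1 fell by 1.03 (adjusted p = 0.017) on the log2 scale. MAPK output genes fell with MAPKi in 8 of 8 cases, with a median of -5.82, and 3 of the 8 rose without glutamine (8 of 8 with the block), with a median of 0.65. Amino acid response genes rose without glutamine in 7 of 7 tested, with a median of 2.71, and with MAPKi 3 rose and 4 fell. Of 8 melanocyte lineage markers, 7 rose and 1 fell with MAPKi. Without glutamine 1 of 7 tested fell (MITF, log2 fold change -2.33, adjusted p = 0.00289), or 4 of 7 with the block. In batch 2 alone 4 of 8 fell, beside 4360 of 12471 mRNAs called in either direction. What part these shifts had in the levels of the 10 genes was not tested.

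**Figure D5:**
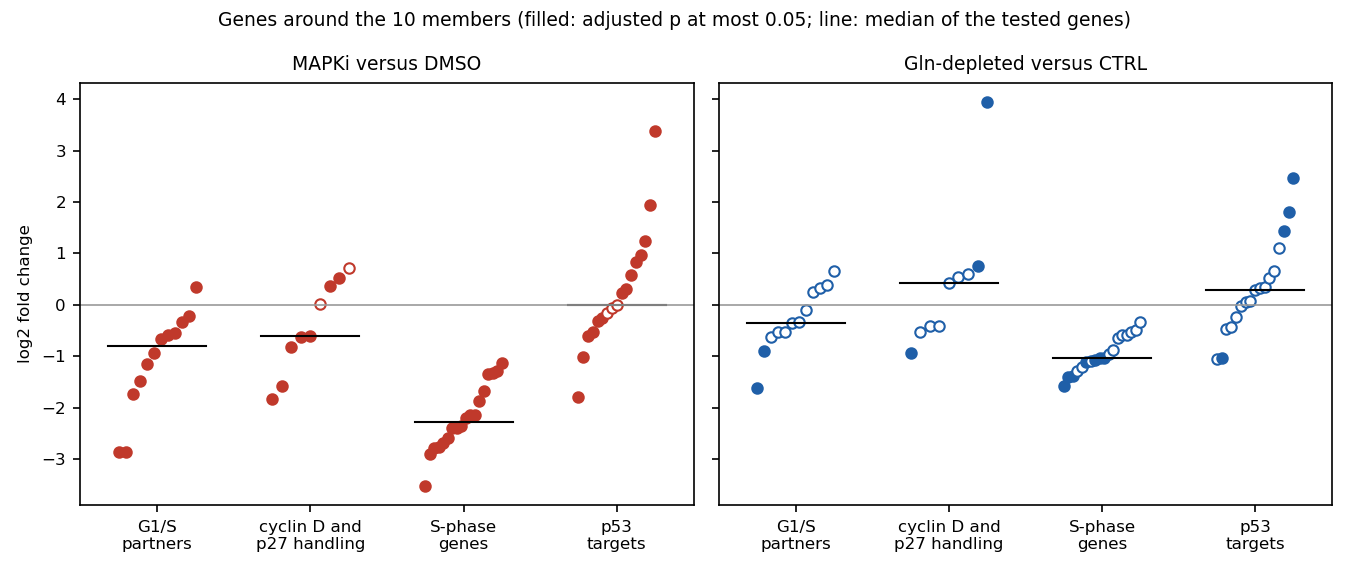
Log2 fold change (y axis) of the tested genes of 4 lists (x axis), with MAPKi (left, red) and without glutamine (right, blue, without the replicate block). Each point is a gene, filled where it passed an adjusted p of 0.05, and lines are medians. All 18 S-phase genes fell with MAPKi (median -2.28), and 7 of 18 without glutamine (median -1.04).

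The genes whose profile was most like that of CCND1 and of CDKN1B were found among 12291 mRNAs by Pearson's r of log2 CPM over the 12 libraries, centred on the control mean of each experiment. For CCND1 these were GPAT3 (r = 0.995, log2 fold change -2.29 with MAPKi and 1.27 without glutamine), SPRR2D (r = 0.995, -10.20 and 3.83) and ZPR1 (r = 0.994, -1.15 and 0.73). For CDKN1B they were GABARAPL1 (r = 0.989, 1.38 and 1.63), YPEL5 (r = 0.982, 1.15 and 1.45) and ATF3 (r = 0.981, 2.36 and 2.64). The libraries fall into treated and control clusters, so r describes mainly the differences between groups and is given without a test.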

How the data were processed

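RNA-seq counts of 12 libraries were analysed. The table the authors deposited holds raw counts of reads on exons for 44659 genes named by symbol, made with fastp 0.20.1, HISAT2 2.2.1 and HTSeq 0.13.5 on GRCh38 according to the submitters' processing notes. Whether strand was used in counting is not given in the sources used here. In GENCODE, CCND1, CCND2, CDK4, CDK6 and CDKN1A share exons with a gene on the opposite strand. Their counts may be affected, in either direction, where the exons overlap. The labels describe RNA from a cytoplasmic fraction, and the methods of the study total RNA. The labels number the replicates without stating separate cultures, so p-values measure the spread between these libraries, which may be technical. Symbols were matched to RefSeq genes (36524 by symbol and 513 by an older one, with 4858 further copies kept apart and 2764 unmatched), and 19376 were protein-coding.

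Each experiment was fitted by itself in edgeR 4.0.16 (R 4.3.3) by the quasi-likelihood test after TMM normalization, with no term beside the group. Protein-coding genes entered where their normalized count averaged at least 10, and p was adjusted by Benjamini-Hochberg over all of them. glmTreat gave the test against a 1.5-fold change. The difference between the responses was a contrast over the 12 libraries. RPKM used counts scaled by TMM over the 12 libraries together, and the union of exons in GENCODE. Intervals are at 95%. The floor of 3 counts covers counting error only. Named genes were all 10 members and, for each list and comparison, the 2 largest rises and falls among called genes with a mean of at least 100. For likeness, log2 CPM had a prior count of 2. Members and lists were chosen with earlier results of these data known. The procedure was tested on simulated data without pairs. With the spread of DMSO libraries, edgeR called 92 of 100 genes changed by 1 on the log2 scale and 98 of 100 changed by 2. With the spread of CTRL libraries it called 20 and 85 of 100. A gene not called without glutamine in the unpaired fit may thus still have changed.

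Same-numbered libraries of the Gln experiment deviated together from their group means (r = 0.597, 0.46 and 0.394 across genes) and shared an experimental batch, so the numbers pair them. The main fit is unpaired. Values with the replicate number as a block are given beside it where they change a call or where leaving out 1 library lost it. In the MAPKi experiment r was 0.074, 0.055 and 0.053, too weak to show whether the numbers pair the libraries. Alternatives were DESeq2 1.42.0 or its size factors, genes with at least 2 reads, all rows of the table, the replicate block, all 12 libraries, batch 2 only and each library left out. Figures were drawn with matplotlib 3.10.9 in Python 3.11.15.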

Additional observations from a re-analysis of the deposited data

Results flagged for a closer look

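CDK4 is listed here because its pairs in the Gln experiment lay on both sides of 0. The log2 ratio of Gln-depleted to CTRL was -0.066 in the pair of experimental batch 1 and 0.165 and 0.132 in those of batch 2. The difference between the batches was not tested, and with 1 pair in batch 1 it has no replicate. The ratios of all other members except CCND2, which had 0 reads in CTRL, had 1 sign in all 3 pairs. For CDKN1C the ratio of 0.245 in pair 2 rests on raw counts of 19 and 22. The share of all mRNAs with 1 sign in the 3 pairs was not computed.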

How the results depend on the processing

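The direction of each called member was kept under every alternative run. Of 396 values of single members under an alternative, 373 kept their side of the threshold, 7 passed and 16 missed it, and those are given beside the gene. At 1.5-fold, 4 members were called with MAPKi, 3 with DESeq2 (CDKN2D was lost) and 2 in a fit of all 12 libraries (CDK6 and CDKN2D were lost). Over all mRNAs these fits called 4472 of 12593, 3765 of 12592 and 3029 of 12627. Without glutamine, CCND2 included, 3 were called at 1.5-fold, 6 with the replicate block and 5 in the fit of 12 libraries. The block takes the pairing of the libraries into account. CCND2 had 0 reads in CTRL and was tested only through the Gln-depleted libraries, so its call carries no weight in these counts. The others were CCND1 and CDKN1A, joined by CCND3, CDK6 and CDKN2C with the block. In the fit of 12 libraries CCND3 and CDKN2C joined them. At 1.5-fold these fits called 679 of 12512, 2051 of 12512 and 1667 of 12627 mRNAs. Of the 56 tested genes of the 4 pathway lists, 16 were called without glutamine, 25 with DESeq2, 41 with the replicate block, 38 in the fit of 12 libraries and 35 in batch 2 alone, where 1 pair of libraries fewer was used. Calls over all mRNAs moved in the same way, with 2211 of 12512, 3298 of 12504, 6066 of 12512, 5190 of 12627 and 4360 of 12471 in this order. Leaving out 1 library at a time gave 7 (without Gln-depleted replicate 2) to 28 (without Gln-depleted replicate 1), with 9 without CTRL replicate 2 and 10 without CTRL replicate 3. Beside these, 736 of 12500, 2750 of 12477, 864 of 12509 and 943 of 12497 mRNAs were called, in this order. The cause of these shifts was not tested. With MAPKi the block called 52 of the 56 against 51, beside 10045 against 9815 of 12593 mRNAs, and it changed no call of a member. With the longest transcript as length, CCND1 made up 64.8% of D-type cyclins in DMSO, 27.9% in MAPKi, 74.3% in CTRL and 95.9% in Gln-depleted cells, against 79.8%, 45.3%, 86.1% and 97.9% with all exons. Depth limits CCND2 outside Gln-depleted cells and CDKN1C, where counts of 0 to 51 leave small changes undetectable.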
